A study of Mus musculus with 6 samples.

Results

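Insulin binds its receptor on fat cells, the receptor phosphorylates adaptor proteins called insulin receptor substrates, and these recruit phosphatidylinositol 3-kinase (PI3K), which activates the kinase AKT. AKT then inhibits the GTPase-activating protein AS160, which lets the glucose transporter GLUT4 reach the cell surface, and it keeps the transcription factor FOXO1 out of the nucleus. Adaptors and phosphatases restrain the receptor. The 10 genes described here follow that order: Insr (the receptor), Irs1 and Irs2 (substrates), Pik3r1 (regulatory subunit of PI3K), Akt1 and Akt2 (kinases), Tbc1d4 (AS160), Foxo1, and the inhibitors Grb14 and Ptpn1. They were chosen by name, as all probe sets whose only gene symbol in the platform annotation is one of the 10. This gave 26 probe sets for 10 of the 18193 genes with such probe sets on the array.

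Transcript levels were compared between 3 Pparg ldi/+ mice and 3 litter-matched wild-type mice, all males of 10 weeks on a mixed C57BL6;129Sv background, with 1 Affymetrix array for each mouse. Pparg ldi/+ mice carry 1 wild-type copy of Pparg, the nuclear receptor gene that drives adipocyte differentiation, and 1 copy of an allele named ldi, which the labels link with lipodystrophy. The RNA came from whole epididymal fat pads, so it mixes adipocytes with macrophages, vessels and other cells, and fewer cells of a type and less RNA per cell cannot be told apart. The labels do not say how the ldi allele was made or how it alters the protein.

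The arrays were close in overall level, with deposited median signals of 59.2 to 69.4, and correlated across 11201 tested genes at a mean r of 0.972 to 0.980 with arrays of their own genotype and 0.888 to 0.906 with arrays of the other. Pparg itself had scaled signals of 1732, 1709 and 1901 in Pparg ldi/+ fat, against 4378, 4440.3 and 4998 in wild-type fat (log2 difference -1.35, SE 0.084, limma adjusted p = 1.04e-05). Markers of several cell types differed between the genotypes as well. Of 10 adipocyte markers tested, 9 fell and 0 rose, and their summed signal was 88163 to 97798 in Pparg ldi/+ fat, against 163766 to 187131 in wild-type fat. Their median log2 difference was -1.18. Dgat2 and Fabp4, the brightest of them, changed less, at -0.33 (adjusted p = 0.0137) and -0.15 (adjusted p = 0.0761). Dgat2 was not called with unscaled values (-0.27), without Pparg ldi/+ array 3 (-0.31) or with that array alone (-0.37). Fabp4 was at 0.03 with quantile normalisation and passed at -0.86 with its probe sets averaged (adjusted p = 6.2e-05). All 13 macrophage markers rose, and their summed signal was 100795 to 104084 in Pparg ldi/+ fat, against 40496 to 51751 in wild-type fat. The brightest were Lyz2 at 0.37 (adjusted p = 0.0102) and Csf1r, a receptor of the macrophage lineage, at 0.76 (adjusted p = 0.000559). Of 10 endothelial markers 7 fell, of 6 mesothelial markers 5 fell, of 7 lymphocyte markers 4 rose, of 7 stromal progenitor markers 1 rose and 2 fell, and of 2 skeletal muscle markers neither passed. Beside these counts, 16.4% of all tested genes fell and 16.3% rose, 32.7% together. Epididymal markers had summed signals of 23285, 31863 and 716 on Pparg ldi/+ arrays 1, 2 and 3, against 634 to 1292 in wild type. Of 7 epididymal markers tested, 4 rose and 3 did not pass. The brightest were Lcn8 and Gpx5, at 3.42 and 2.79 (adjusted p = 0.0535 and 0.115), and both passed with Pparg ldi/+ array 3 left out, at 5.13 and 4.56, and with unscaled values, at 3.25 and 2.70. Lcn8 also passed with the replicate block (adjusted p = 0.0474). No marker of any list was at 0 on all arrays. The part of these cell types in the results below was not tested.

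Of the 10 insulin signalling genes, all bright enough to be tested, 5 fell in Pparg ldi/+ fat, 3 rose and 2 did not pass the threshold. Rose and fell mean a limma adjusted p under 0.05 over all tested genes. The genes that fell were Insr, Irs1, Pik3r1, Akt2 and Foxo1, those that rose were Irs2, Grb14 and Ptpn1, and those that did not pass were Akt1 and Tbc1d4. Among all 11201 tested genes 16.4% fell and 16.3% rose, 32.7% together. The 10 genes had a median log2 difference of -0.28 and a median absolute difference of 0.83, beside -0.0043 and 0.25 over all tested genes. The groups did not overlap in 9 of the 10 genes, and in 47.6% of all tested genes. For a single gene an exact two-sided permutation test of 3 against 3 arrays cannot go below 0.1, and it gave 0.1 for these 9 genes. The labels give litter matching but no pairs. The limma p-values set the genotype difference against the spread among mice of the same genotype, moderated over all tested genes, and rest on these 6 mice.

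**Figure D1:**
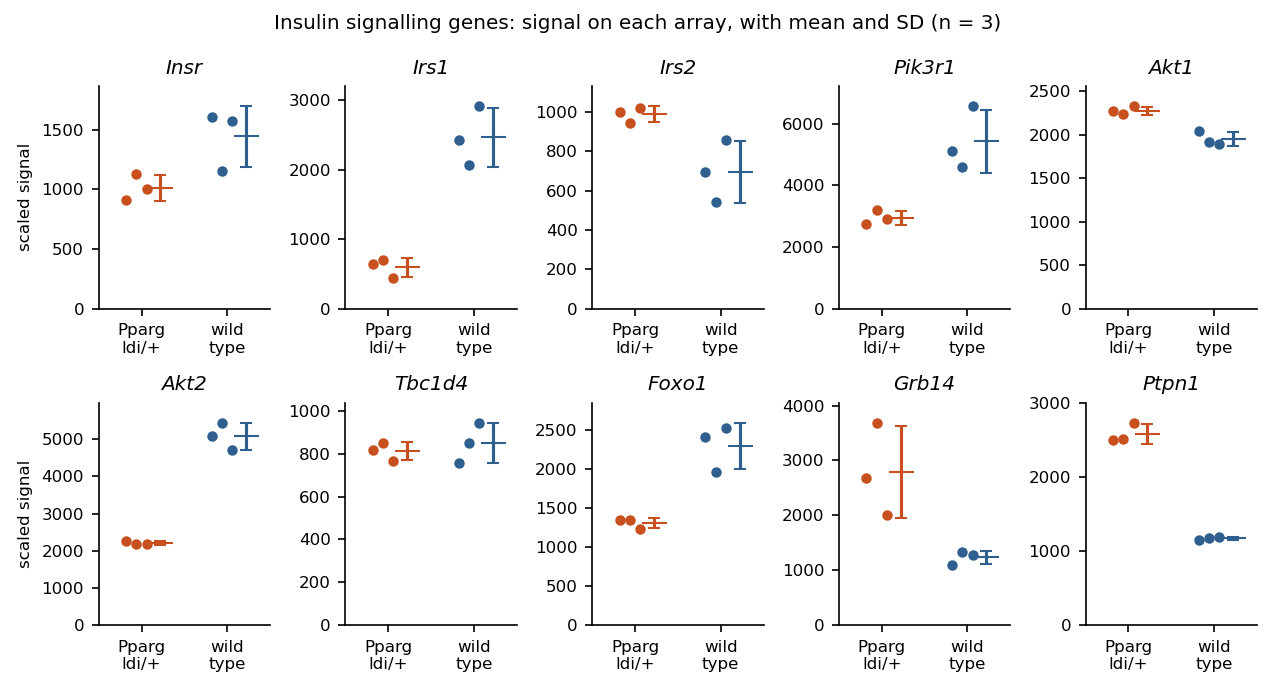
Scaled signal (linear axis from 0) of the 10 insulin signalling genes on each array; points are single mice, and the bar beside them is the mean with its SD over 3 mice of Pparg ldi/+ (left) and wild type (right). The groups are apart in every panel but that of Tbc1d4, with Irs1 and Akt2 well below wild type and Grb14 and Ptpn1 above it.

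The receptor gene Insr was lower in Pparg ldi/+ fat. Its scaled signal was 907, 1126 and 1000.2 in Pparg ldi/+ mice, against 1606, 1151 and 1570.2 in wild-type mice. The highest Pparg ldi/+ mouse lay just under the second wild-type mouse, so the groups were separated by a narrow margin. The log2 difference was -0.49 (1.40-fold lower, SE 0.142, 95% confidence interval -0.81 to -0.17, limma adjusted p = 0.0286). A dimmer probe set of Insr did not pass (log2 difference 0.05, adjusted p = 0.895), and another was too dim to be tested. The call was lost without Pparg ldi/+ array 1 (log2 difference -0.42) or array 3 (-0.48), without wild-type array 1 (-0.41) or array 3 (-0.42), and with its probe sets averaged (-0.17). The adjusted p ran from 0.00521 to 0.441 over the alternatives.

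The receptor's main substrates changed in opposite directions. Irs1, the principal substrate of fat and muscle, had scaled signals of 639.6, 703 and 443 in Pparg ldi/+ mice, against 2422, 2066 and 2914 in wild-type mice. Each Pparg ldi/+ mouse had a far lower Irs1 signal than any wild-type mouse. This 4.01-fold fall (log2 difference -2.0, SE 0.180, adjusted p = 7.2e-05) was the largest among the 10 genes. Irs2, the related substrate that prevails in liver and islets, had scaled signals of 1001, 946 and 1023 in Pparg ldi/+ mice, against 692, 541 and 856 in wild-type mice. The groups did not overlap, and the Pparg ldi/+ mice were closer to each other (SD 39.7) than the wild-type mice (SD 157). Irs2 rose 1.42-fold (log2 difference 0.51, SE 0.152, 95% confidence interval 0.16 to 0.86, adjusted p = 0.0317). The call of Irs2 was lost when Pparg ldi/+ array 1 (log2 difference 0.50), array 2 (0.54) or array 3 (0.49) or wild-type array 1 (0.52) or array 2 (0.35) was left out, with an adjusted p from 0.00622 to 0.194 over the alternatives. Each substrate was read by a single probe set.

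The promoters of Irs1 and Irs2 are shown because these related genes moved apart while their start regions share letters. The sequences are from RefSeq (GRCm38.p6), 250 bases upstream of the start site on the minus strand, at chr1:82291440-82291689 for Irs1 and chr8:11008930-11009179 for Irs2. Capitals mark the E-box CACGTG, bound by helix-loop-helix factors, and TGTTTTG, a form of the insulin response element core.
Irs1: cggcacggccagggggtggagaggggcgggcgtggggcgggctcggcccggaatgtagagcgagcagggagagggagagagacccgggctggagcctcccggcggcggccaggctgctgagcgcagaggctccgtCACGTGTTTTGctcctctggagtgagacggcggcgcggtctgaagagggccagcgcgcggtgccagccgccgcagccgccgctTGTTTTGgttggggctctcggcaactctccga
Irs2: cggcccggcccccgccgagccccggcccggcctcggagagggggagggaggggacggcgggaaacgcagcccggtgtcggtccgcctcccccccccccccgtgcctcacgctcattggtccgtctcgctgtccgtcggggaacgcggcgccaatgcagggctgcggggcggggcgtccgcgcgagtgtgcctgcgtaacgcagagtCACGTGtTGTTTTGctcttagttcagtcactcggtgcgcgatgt

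In Irs1 the E-box begins at -115 and TGTTTTG at -111, overlapping it, with another at -32. In Irs2 the E-box begins at -44 and TGTTTTG at -37. Searched on both strands over 300-base windows, CACGTG was in 7.15% of 32851 promoters, TGTTTTG in 6.28% and both in 0.408%. Both motifs were picked after the letters of these promoters were read. Of the 14 promoters listed for 9 of the 10 genes, those of Irs1 and Irs2 held both. The FOXO element GTAAACA was in 3.65% of all promoters and in 1 of the 14, a promoter of Akt1, at -161 on the other strand. The DR1 element of PPARG with RXR, searched as AGGTCA repeated after a single base, was in 0.0396% of all promoters and in 0 of the 14. These matches describe letters in a window and are not evidence of binding.

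Pik3r1, which encodes the regulatory subunit through which PI3K docks on the substrates, was lower in Pparg ldi/+ fat in all 4 of its probe sets. The probe set read for the gene had scaled signals of 2742, 3186 and 2913 in Pparg ldi/+ mice, against 5122, 4601 and 6566 in wild-type mice. The groups were well apart, and wild-type mouse 3 was the highest. The log2 difference was -0.86 (1.82-fold lower, SE 0.128, adjusted p = 0.00114). Its other probe sets fell by 1.17, 0.69 and 0.93 on the log2 scale, with adjusted p of at most 0.00967 over all probe sets tested.

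The AKT genes changed unequally. Akt2, the form needed for insulin-stimulated glucose uptake, had scaled signals of 2274, 2179 and 2185 in Pparg ldi/+ mice, against 5088, 5442 and 4714 in wild-type mice. Every Pparg ldi/+ mouse was below every wild-type mouse by a wide margin, and the Pparg ldi/+ mice hardly differed among themselves (SD 53.2). Akt2 fell 2.28-fold (log2 difference -1.19, SE 0.077, adjusted p = 1.3e-05). A further probe set of Akt2 fell by 1.51 (adjusted p = 1.44e-05), while the dimmest did not pass at -0.21 (adjusted p = 0.469). The suffix of the brightest Akt2 probe set marks probes shared by several transcripts. RefSeq lists a pseudogene, Akt2-ps, and whether these probes also read it was not checked.

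Akt1, the more widely expressed form, had scaled signals of 2267, 2233 and 2327 in Pparg ldi/+ mice, against 2047, 1918 and 1895 in wild-type mice. All Pparg ldi/+ mice were above all wild-type mice, but by little. The log2 difference of 0.22 did not pass (95% confidence interval 0.05 to 0.39, adjusted p = 0.0510). It passed with quantile normalisation at 0.23 (adjusted p = 0.0414) and with testing limited to the brightest 30% of probe sets (adjusted p = 0.0441). In the other 15 of 17 alternatives it did not pass. Among these it was at 0.05 with its probe sets averaged (adjusted p = 0.757) and at 0.20 to 0.25 without single arrays (adjusted p up to 0.152). Other probe sets of Akt1 were at 0.29 and -0.28 and did not pass (adjusted p = 0.0929 and 0.398).

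Tbc1d4, the AKT substrate that holds GLUT4 inside the cell, had scaled signals of 817, 850.0 and 768 in Pparg ldi/+ mice, against 758, 851 and 945 in wild-type mice. The groups overlapped, and the log2 difference of -0.06 did not pass (95% confidence interval -0.31 to 0.18, adjusted p = 0.702). The interval leaves room for a change of either sign, and the sign turned with its probe sets averaged (0.22) and without wild-type array 3 (0.014). Its dimmer probe set was at 0.50 with an interval of -0.39 to 1.38.

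Foxo1, the transcription factor that AKT holds in check, had scaled signals of 1343, 1349 and 1228 in Pparg ldi/+ mice, against 2408, 1960.4 and 2519 in wild-type mice. The lowest wild-type mouse was well above the highest Pparg ldi/+ mouse. Foxo1 fell 1.73-fold (log2 difference -0.79, SE 0.108, adjusted p = 0.000698), and its other 2 tested probe sets fell by 0.92 and 0.55 (adjusted p = 9.56e-05 and 0.0345). The probe set read for Foxo1 bears the same suffix for shared probes as that of Akt2. In the dimmer of the others the groups overlapped, with 956, 1120.1 and 870.3 in Pparg ldi/+ mice, against 1642, 1103 and 1649 in wild-type mice.

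Both inhibitors rose. Grb14 encodes an adaptor that binds the active insulin receptor and blocks its kinase. Its scaled signal was 2674, 3687 and 2004 in Pparg ldi/+ mice, against 1102, 1325 and 1269 in wild-type mice. All Pparg ldi/+ mice were higher than all wild-type mice, and they were the most spread of the 10 genes relative to their mean (SD 847). Grb14 rose 2.17-fold (log2 difference 1.12, SE 0.193, adjusted p = 0.00242). Pparg ldi/+ mouse 3, whose summed epididymal markers lay within the wild-type range, had the lowest Grb14 of its group, and with that mouse as the only Pparg ldi/+ mouse the log2 difference was 0.69 in place of 1.12. That comparison assumes that a lone mouse varies like the wild-type group. The part of epididymal tissue in the Grb14 difference was not tested. The second probe set of Grb14 was too dim to be tested.

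Ptpn1 encodes PTP1B, the phosphatase that removes phosphate from the insulin receptor. Its scaled signal was 2494, 2506 and 2727 in Pparg ldi/+ mice, against 1145, 1174 and 1183 in wild-type mice. Both groups were tight and far apart. Ptpn1 also rose 2.17-fold (log2 difference 1.12, SE 0.077, adjusted p = 1.76e-05), and its other probe set rose by 0.77 (adjusted p = 0.000247), with 1323, 1430.5 and 1357 in Pparg ldi/+ mice, against 806, 767 and 805 in wild-type mice.

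Across all 26 probe sets of the 10 genes, 22 were bright enough to be tested, 11 fell, 4 rose and 7 did not pass. Of all 19652 probe sets tested, 15.1% fell and 14.6% rose, 29.7% together. No gene had a probe set that rose beside one that fell. The 4 that were not tested belonged to Insr, Akt1, Foxo1 and Grb14.

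**Figure D2:**
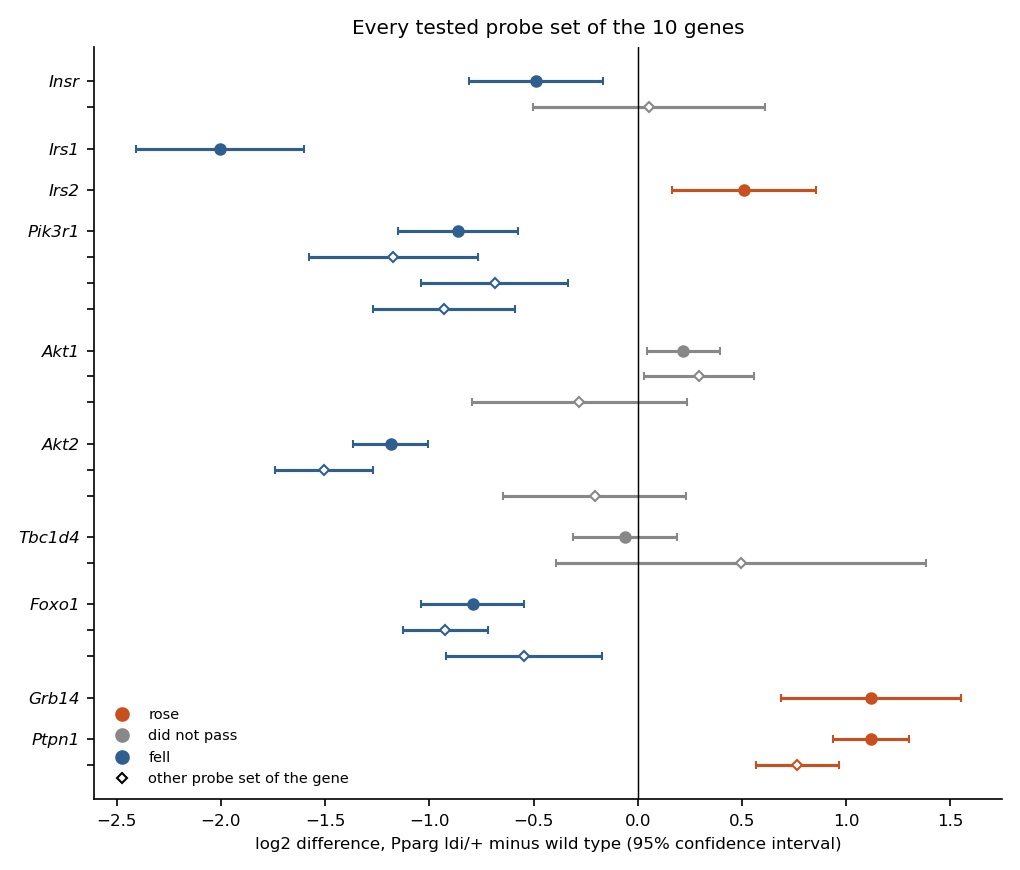
Log2 difference, Pparg ldi/+ minus wild type, with its 95% confidence interval for each of the 22 tested probe sets of the 10 genes; filled circles are the probe sets read for the gene and open diamonds are its others, coloured by call. All 4 probe sets of Pik3r1 and 3 of Foxo1 fell and both of Ptpn1 rose, while the intervals of the dimmest tested probe sets of Insr, Akt1, Akt2 and Tbc1d4 straddle 0.

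Log2 ratios within an array were compared between genotypes for 5 pairs of genes. The log2 ratio of Akt2 over Akt1 averaged -0.04 ± 0.05 in Pparg ldi/+ mice and 1.36 ± 0.11 in wild-type mice (SD, n = 3), a difference of -1.40 (SE 0.068). The ratio of Irs2 over Irs1 averaged 0.73 ± 0.38 in Pparg ldi/+ mice and -1.79 ± 0.07 in wild-type mice, a difference of 2.52 (SE 0.224). Ratios between probe sets are not ratios of transcript number, so only their change between genotypes is read. Over Insr, the inhibitors gained by 1.61 in each case (SE 0.184 for Ptpn1 and 0.303 for Grb14). With probe sets averaged, Ptpn1 gained by 1.11 and Grb14 by 0.95 over Insr, and Akt2 over Akt1 differed by -1.02. Grb14 over its relative Grb10, another adaptor that restrains the receptor, gained by 2.05 (SE 0.258), since Grb10 fell where Grb14 rose. That gain was 1.49 with probe sets averaged. In each of the 5 pairs all 3 Pparg ldi/+ mice lay on the same side of all 3 wild-type mice. Each exact two-sided permutation p was 0.1, also adjusted over the 5, the smallest that 3 against 3 arrays allow. Every pair sets a gene higher in all Pparg ldi/+ mice than in any wild-type mouse against a gene lower in all of them. The separation and its p were therefore fixed by the single-gene values and add no support to them.

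**Figure D3:**
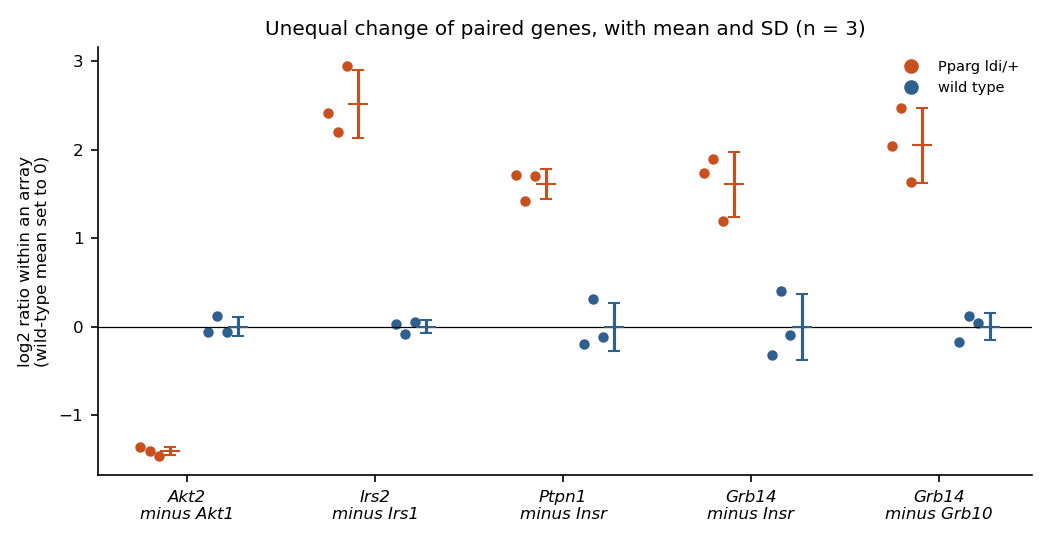
Log2 ratio of the genes of each pair within an array, with the wild-type mean set to 0; points are mice, and the bar beside them is the mean with its SD over 3 mice, with Pparg ldi/+ left and wild type right. The Pparg ldi/+ mice lie apart from the wild-type mice in all 5 pairs, lower for Akt2 over Akt1 and higher for the others. This follows from the single genes, which were already apart in opposite directions in every pair.

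Among other adaptors of the receptor, 3 of 11 tested genes rose and 3 fell, where 16.3% and 16.4% of all tested genes did so. Irs3, a substrate found in rodent fat, fell 3.09-fold, with a scaled signal of 234 ± 58.5 in Pparg ldi/+ mice and 779 ± 85.5 in wild-type mice (SD, n = 3, adjusted p = 0.000217). Rapgef1, an exchange factor that acts beside CRK, fell by 0.60 on the log2 scale (adjusted p = 0.00109), and Sos1, the exchange factor that activates RAS, fell by 0.35 (adjusted p = 0.025). The adaptor Grb2, which links receptors with SOS, rose 1.55-fold (adjusted p = 0.000591), the ubiquitin ligase gene Cbl 1.46-fold (adjusted p = 0.00249) and the adaptor gene Sh2b2 1.45-fold (adjusted p = 0.0146). With probe sets averaged, Cbl, Sh2b2 and Sos1 lost their calls, at 0.18, 0.35 and -0.11. Sos1 was also no longer called when Pparg ldi/+ array 1 (-0.35), Pparg ldi/+ array 3 (-0.32) or wild-type array 2 (-0.29) was left out, or with unscaled values (-0.28). Igf1r, the receptor of insulin-like growth factor 1, did not pass at 0.11.

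Further along the pathway, 7 of 20 tested genes of PI3K, AKT, mTOR and FOXO signalling fell and 1 rose, beside 16.4% and 16.3% of all tested genes, with a median log2 difference of -0.23. Pde3b, whose product breaks down cyclic AMP and so lets insulin curb lipolysis, was at 1947 ± 341 in Pparg ldi/+ mice and 7465 ± 517 in wild-type mice (3.82-fold lower, adjusted p = 1.17e-05). Eif4ebp1, the translational repressor that mTOR inactivates, was at 2374 ± 238 in Pparg ldi/+ mice and 7201 ± 1037 in wild-type mice (2.99-fold lower, adjusted p = 2.54e-05). Pik3ca, a catalytic subunit of PI3K, fell 1.52-fold (adjusted p = 0.00315) and by less with its probe sets averaged (log2 difference -0.37 there and -0.6 otherwise). The glycogen synthase kinase genes differed, with Gsk3b lower (log2 difference -0.43, adjusted p = 0.00359) and Gsk3a higher (0.33, adjusted p = 0.0486). Gsk3b was not called with its probe sets averaged (-0.10). The call of Gsk3a held in 6 of 17 alternatives. It ended without Pparg ldi/+ array 1 (0.21) or array 3 (0.35), without any wild-type array (0.32 to 0.34) and with unscaled values (0.38). It also ended with no filter on dim probe sets, no intensity trend, probe sets averaged, or Pparg ldi/+ array 3 alone (0.29). Of the genes that carry GLUT4, 3 of 12 fell and 1 rose, near the 32.7% called among all genes. Slc2a4, the GLUT4 gene itself and also an adipocyte marker here, was at 1589 ± 198 in Pparg ldi/+ mice and 3640 ± 156 in wild-type mice (2.27-fold lower, adjusted p = 5.59e-05). Myo1c, a motor protein of GLUT4 vesicles, fell 1.79-fold (adjusted p = 3.74e-05), Sort1, the sortilin gene, fell by 0.68 on the log2 scale (adjusted p = 0.000542), and Stxbp3, which binds the vesicle receptor syntaxin, rose 1.29-fold (adjusted p = 0.00938). Stxbp3 was not called with its probe sets averaged (0.42, adjusted p = 0.0573).

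Of 14 other tested inhibitors of the pathway, 4 rose and 1 fell, and the remaining 9 did not pass, a share called that is near the 32.7% of all tested genes. Inpp5d, which encodes the phosphatase SHIP1 of blood cells, rose 2.05-fold, with 853 ± 43.7 in Pparg ldi/+ mice and 402 ± 43.2 in wild-type mice (adjusted p = 0.000215). Ptpn2, a phosphatase related to PTP1B, rose 1.52-fold (adjusted p = 0.00246), Socs3, a cytokine-induced inhibitor, rose 1.90-fold (adjusted p = 0.0331), and the phosphatase gene Ptpre rose 1.30-fold (adjusted p = 0.0372). Grb10 fell 1.90-fold, with 1276 ± 14.5 in Pparg ldi/+ mice and 2459 ± 31.6 in wild-type mice (adjusted p = 3.27e-05). The count of 4 became 2 without Pparg ldi/+ array 1 or 3 or wild-type array 2 or 3, where Socs3 and Ptpre were not called. In these fits Socs3 was at 0.84, 0.94, 0.65 and 0.86 and Ptpre at 0.28, 0.39, 0.37 and 0.34, and Socs3 alone was also not called without Pparg ldi/+ array 2 (1.0). Ptpn2 was not called with its probe sets averaged (0.28). Summed macrophage markers, given above, were higher in every Pparg ldi/+ mouse than in any wild-type mouse. The same held for Inpp5d, Ptpn2, Socs3, Ptpre, Grb14 and Ptpn1. These genes are listed here because they were called as risen. Their separation was largely set by that choice and does not link them with a cell type. Over all tested genes the groups did not overlap, in either direction, in 47.6%. The part of macrophages in these rises was not tested.

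Genes that FOXO factors are known to activate fell in 5 of 10 and rose in 0 by limma, with the same counts at an unadjusted p under 0.05, beside 16.4% and 16.3% of all tested genes. Their median log2 difference was -0.36, and 1 fell with Pparg ldi/+ array 3 as the only Pparg ldi/+ array. Sesn3, a stress-induced sestrin, was at 471 ± 54.8 in Pparg ldi/+ mice and 929.9 ± 143 in wild-type mice (1.91-fold lower, adjusted p = 0.00111). Txnip, a thioredoxin inhibitor, and Ccng2, a cyclin of arrested cells, each fell by 0.46 (adjusted p = 0.00996 and 0.0139), and Ccng2 was not called with unscaled values (-0.40). Pnpla2, the triglyceride lipase of fat cells and also an adipocyte marker here, fell by 0.39 (adjusted p = 0.00723), and averaging its probe sets gave 0.0031. Of the 24 genes named from the other pathway and FOXO lists, 4 lost the call when some single array was left out and 10 with Pparg ldi/+ array 3 as the only Pparg ldi/+ array.

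**Figure D4:**
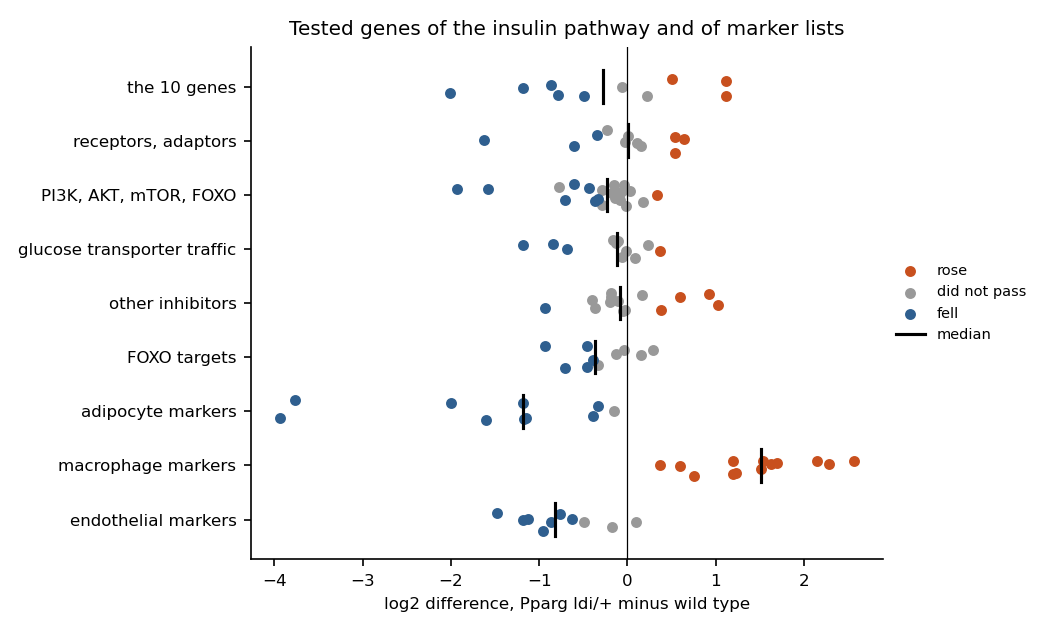
Log2 difference, Pparg ldi/+ minus wild type, of each tested gene in the insulin pathway lists and in 3 marker lists; every point is a gene coloured by call and the black line is the list's median. The 10 genes span -2.0 to 1.12, and the medians of the other pathway lists run from -0.36 for FOXO targets to 0.0033 for receptors and adaptors. All adipocyte markers lie left of 0 and all macrophage markers right of it.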

How the data were processed

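The authors deposited linear signal intensities made with MAS5, per the submitters' processing notes, which name it for 2 of the 6 samples. Neither its settings nor calls of presence are among the sources, so no probe set is called detected. Arrays were brought to a common mean of 500, with 2% trimmed at each end (factors 2.12 to 2.49), 32 was added and log2 taken, which understates the change of dim genes. The 45101 probe sets include 64 controls, which were dropped. A single gene symbol in the platform annotation was given for 34945. Of these, 34741 took their symbol from a RefSeq table (GRCm38.p6), whether or not it differed. A gene was read by its brightest probe set, with sets of suffix x_at used only where no other existed and those of suffix s_at treated like the rest. Genes with a mean below a log2 value of 7.46, the median of all probe sets, were not tested. The genotype comparison used limma 3.58.1 in R 4.3.3 (intensity trend, two-sided, no covariates, Benjamini-Hochberg adjustment over 11201 genes, threshold 0.05), and all 19652 bright probe sets were fitted likewise. Precision is limited by the number of arrays. The method was tested on simulated data.

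The members, lists and alternatives were chosen with earlier results of these data known. Of each other pathway list the called genes with the 4 smallest p in each direction are named, of the marker lists the brightest 2 (for adipocytes, macrophages and epididymis), and Igf1r was added after its value was seen. The alternatives changed the offset, scaling, filter, variance model, probe set rule, threshold and replicate block, and left out arrays. Some genes of the pathway are not reported here, and protein sequences were not used here.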

Additional observations from a re-analysis of the deposited data

How the results depend on the processing

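Among the 10 insulin signalling genes the number that rose was 2 to 4 and the number that fell 4 to 5 over 18 alternatives, and Irs1, Pik3r1, Akt2, Foxo1, Grb14 and Ptpn1 kept direction and call in all 17 run on them. Insr and Irs2 lost their calls in 7 alternatives each, among them Pparg ldi/+ array 3 alone (-0.50 and 0.56), Irs2 also without a filter on dim probe sets (adjusted p = 0.0518). Leaving out each array in turn gave 2 to 3 that rose and 4 to 5 that fell, and 3 to 4 probe sets that rose and 9 to 11 that fell. Over all genes 1290 to 1706 rose and 1447 to 1678 fell in those fits; 1085 rose and 1153 fell at a threshold of 0.01, and 730 rose and 886 fell with Pparg ldi/+ array 3 alone, where fewer arrays call fewer genes.

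The 43 other pathway genes had 5 rises and 13 falls. Their rises were 4 to 5 without single arrays, 1 with probe sets averaged, 3 at 0.01 and 2 with array 3 alone, where falls were 8 (10 to 13 without single arrays). Rises of the 14 other inhibitors were 2 to 4 without single arrays and 2 with no intensity trend, at 0.01 and with array 3 alone. Falls of FOXO targets were 4 to 5 without single arrays, 3 with unscaled values, with probe sets averaged and at 0.01, and 1 with array 3 alone; 1 target rose with probe sets averaged, and 0 to 1 without single arrays. Reversals were found for Tbc1d4 (0.22 with probe sets averaged, and -0.14 to 0.014 without single arrays), Pnpla2 (0.0031 with probe sets averaged), Fabp4 (0.030 with quantile normalisation) and Gpx5 (-0.76 with array 3 alone); the cause was not tested.

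Deviations from the group means correlated at -0.13, -0.09 and -0.09 for same-numbered arrays, and at 0.04 to 0.08 for arrays with different numbers. Whether the titles' numbers pair litter mates cannot be told from so few arrays. With the number as a replicate block, Insr did not pass (log2 difference -0.49, adjusted p = 0.0648), and nor did Gsk3a (0.33, adjusted p = 0.0739).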

Other observations

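Wild-type mouse 2 had the lowest signal of its group for Insr, Irs1, Irs2, Pik3r1 and Foxo1, 5 of the 10 genes, where 35.5% of all tested genes had that mouse lowest. These 5 genes spanned 0.36 to 0.63 on the log2 scale among the wild-type mice, while Ptpn1 spanned 0.05. Irs2 spanned 0.11 among the Pparg ldi/+ mice, and Grb14 spanned 0.87 there.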
